A study of Saccharomyces cerevisiae with 10 samples.

Results

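The genes described are 4 of the subunit genes of the yeast vacuolar transporter chaperone (VTC) complex, VTC1, VTC2, VTC3 and VTC4, the phosphate-responsive phosphatase gene PHM8, and the 4 regulator genes PHO2, PHO4, PHO80 and PHO85. They were chosen by name for their place in polyphosphate synthesis and phosphate signalling, with earlier results of these data known. They are 9 of the 6677 features in the deposited tables. RNA crosslinked to RNA polymerase II (Pol II), the protein the study's design text says was mapped, was sequenced from budding yeast, Saccharomyces cerevisiae, by PAR-CLIP, in which UV light fixes a tagged protein to the RNA it holds. The Nab3 depletion group was a Nab3-FRB strain with rapamycin, and the Nrd1 depletion group was an Nrd1-FRB strain given rapamycin for 45 min. The cassette group was a strain labelled NabCassette, with WT in its sample titles, without rapamycin. Each group had 2 libraries. Rapamycin ties the FRB tag to an anchor that carries the protein out of the nucleus, and the gene stays intact. All strains were grown in synthetic medium with limiting uracil, and the labels describe an HTB-tagged protein in the crosslinking step, where Rpb2-HTB, a tagged subunit of Pol II, is named for the Nrd1-FRB strain alone. The sources used here do not say what the cassette is or how long the Nab3-FRB cells had rapamycin. Strain, depletion and rapamycin changed together between each depletion group and the cassette, so their parts in a difference cannot be told apart. Between the depletion groups, strain and depleted protein changed together, and the time in rapamycin may have differed, so these cannot be told apart either. Depletion itself was not checked here, since it moves the protein and leaves the gene in place. A Nab3-FRB group without rapamycin and a Nab-HTB group were not analysed here.

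Polyphosphate is a chain of phosphates that yeast stores in the vacuole. Vtc4 is the subunit that polymerises it, Vtc1 is a small membrane subunit, and Vtc2 and Vtc3 are alternative subunits that give different forms of the complex. When phosphate is plentiful, the kinase Pho85 with its cyclin Pho80 phosphorylates the transcription factor Pho4 and keeps it out of the nucleus; when phosphate is scarce, the inhibitor Pho81 blocks the kinase, and Pho4, with its partner Pho2, switches on the PHO genes, VTC1 to VTC4 and PHM8 among them. Nab3 and Nrd1 bind short motifs in new transcripts and, with the helicase Sen1, end transcription of many noncoding RNAs and of some messenger RNA genes near their start.

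The 300 bases before the start codon are shown for VTC1 to VTC4 and PHM8, because these genes are known as targets of Pho4, and for PHO4 itself. They were read from the R64 genome, 5′ to 3′ on the strand of the gene. In the first 5 sequences capitals mark CACGTG or CACGTT, the core letters bound by Pho4, on either strand; in the PHO4 sequence they mark TCTTG, a motif bound by Nab3, on the sense strand.
VTC1 (chrV:302506-302805, plus strand): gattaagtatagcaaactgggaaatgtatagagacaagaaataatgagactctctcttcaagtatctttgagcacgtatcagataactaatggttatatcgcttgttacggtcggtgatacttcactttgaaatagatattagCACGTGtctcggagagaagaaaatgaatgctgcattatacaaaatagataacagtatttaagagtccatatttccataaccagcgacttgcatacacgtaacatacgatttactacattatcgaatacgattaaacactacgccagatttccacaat
VTC4 (chrX:413400-413699, minus strand): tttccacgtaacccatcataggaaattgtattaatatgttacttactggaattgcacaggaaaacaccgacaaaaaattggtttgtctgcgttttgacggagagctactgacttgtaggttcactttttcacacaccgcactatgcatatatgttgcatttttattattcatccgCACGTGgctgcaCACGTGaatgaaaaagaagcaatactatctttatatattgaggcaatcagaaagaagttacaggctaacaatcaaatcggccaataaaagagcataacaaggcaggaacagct
VTC3 (chrXVI:517019-517318, minus strand): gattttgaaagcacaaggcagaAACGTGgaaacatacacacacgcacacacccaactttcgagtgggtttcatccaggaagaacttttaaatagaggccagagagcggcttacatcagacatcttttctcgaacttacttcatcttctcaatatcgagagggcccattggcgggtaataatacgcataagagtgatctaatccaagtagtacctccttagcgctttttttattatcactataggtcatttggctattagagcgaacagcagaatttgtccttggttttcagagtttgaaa
PHM8 (chrV:225589-225888, plus strand): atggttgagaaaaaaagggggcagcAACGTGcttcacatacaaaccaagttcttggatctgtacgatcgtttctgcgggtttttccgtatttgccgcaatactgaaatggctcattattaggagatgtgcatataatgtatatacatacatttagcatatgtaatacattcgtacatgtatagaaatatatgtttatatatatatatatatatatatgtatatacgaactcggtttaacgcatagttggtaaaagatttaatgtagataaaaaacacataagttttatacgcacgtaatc
VTC2 (chrVI:131510-131809, plus strand): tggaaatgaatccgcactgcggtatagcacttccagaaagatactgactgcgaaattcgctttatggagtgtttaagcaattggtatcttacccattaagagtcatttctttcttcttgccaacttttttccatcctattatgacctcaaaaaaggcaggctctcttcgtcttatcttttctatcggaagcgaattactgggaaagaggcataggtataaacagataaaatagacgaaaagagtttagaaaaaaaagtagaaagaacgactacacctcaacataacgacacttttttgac
PHO4 (chrVI:225959-226258, minus strand): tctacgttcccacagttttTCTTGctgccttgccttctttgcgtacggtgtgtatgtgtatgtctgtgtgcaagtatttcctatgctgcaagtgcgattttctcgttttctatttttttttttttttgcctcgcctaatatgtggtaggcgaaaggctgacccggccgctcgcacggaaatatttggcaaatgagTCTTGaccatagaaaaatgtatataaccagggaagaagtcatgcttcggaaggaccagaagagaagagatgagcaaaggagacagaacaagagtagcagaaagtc

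CACGTG, a palindrome and therefore the same on both strands, stood at position -157 from the start codon of VTC1 and at positions -125 and -113 of VTC4. CACGTT stood on the antisense strand at -278 of VTC3 and at -275 of PHM8, and on the sense strand at -247 of PHO85. VTC2, PHO2, PHO4 and PHO80 held neither, so 5 of the 9 windows held a match. Of 6001 windows of the same length before protein-coding genes, 3.57% held CACGTG, 9.21% held CACGTT and 12.4% held either. TCTTG stood on the sense strand at -186 of VTC2, at -250 of PHM8 and at -281 and -105 of PHO4, and 34.9% of all windows held it. The match at -281 of PHO4 lies within the annotated gene YFR035C, which ends 162 bases upstream of PHO4 on the same strand. In the first 300 bases of the reading frame, TCTTG began at base 221 of VTC3 and at base 66 of PHO4, and 20.9% of 5710 such stretches held it. The Nrd1 motifs GTAA and GTAG were too frequent to set windows apart, since 77.7% and 56.2% of the windows before genes held them on the sense strand. A match is a run of letters and says nothing about binding.

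The libraries held 13428820 and 9046857 reads on genes in the Nab3 depletion group, 7395659 and 8077260 in the Nrd1 depletion group, and 12084304 and 9584474 in the cassette group. Each member had between 420.0 and 3689 reads in every library. Values below are normalised reads, which the authors made by dividing the reads of a gene by a size factor for its library, with the Nrd1 depletion libraries multiplied by 1.18 to stand on the scale of the others. Means are given ± SD with n = 2 libraries a group, and the labels do not say whether they came from separate cultures, so the p-values measure spread between libraries, which may be technical. Fold changes are log2 differences ± SE of log2(value + 1) from limma, with p-values adjusted over all features by the Benjamini-Hochberg method and a threshold of 0.05. In bulk libraries, fewer cells that transcribe a gene and less Pol II RNA per cell cannot be told apart. Where groups are said below to overlap or not, this only describes the library values. With n = 2 libraries a group, separation can arise by chance, and the share of all features without overlap was not counted.

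VTC1, VTC3 and VTC4 were lower after Nab3 depletion and higher after Nrd1 depletion, each against the cassette, and VTC2 was higher after Nrd1 depletion with no call after Nab3 depletion. Among the 9 members, Nab3 depletion gave 3 higher, PHM8, PHO4 and PHO80, and 3 lower, where 39.7% of 6360 features tested were called, 21.1% higher and 18.7% lower. That split of all calls, 1341 higher and 1187 lower, turned to 1199 higher and 1491 lower with upper-quartile scaling and to 1177 higher and 1454 lower with libraries scaled to their totals, and the 3 members higher and 3 lower stayed so under both. Nrd1 depletion gave 6 higher, VTC1 to VTC4, PHM8 and PHO80, and 0 lower, where 35.3% of 6347 features were called, 17.5% higher and 17.8% lower. Set directly against Nrd1 depletion, Nab3 depletion gave 5 lower, VTC1 to VTC4 and PHO80, and 0 higher, where 21.0% of 6385 features were called, 12.1% higher and 8.91% lower. Both depletions were set against the same 2 cassette libraries, so the comparisons with the cassette are not independent of each other.

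**Figure D1:**
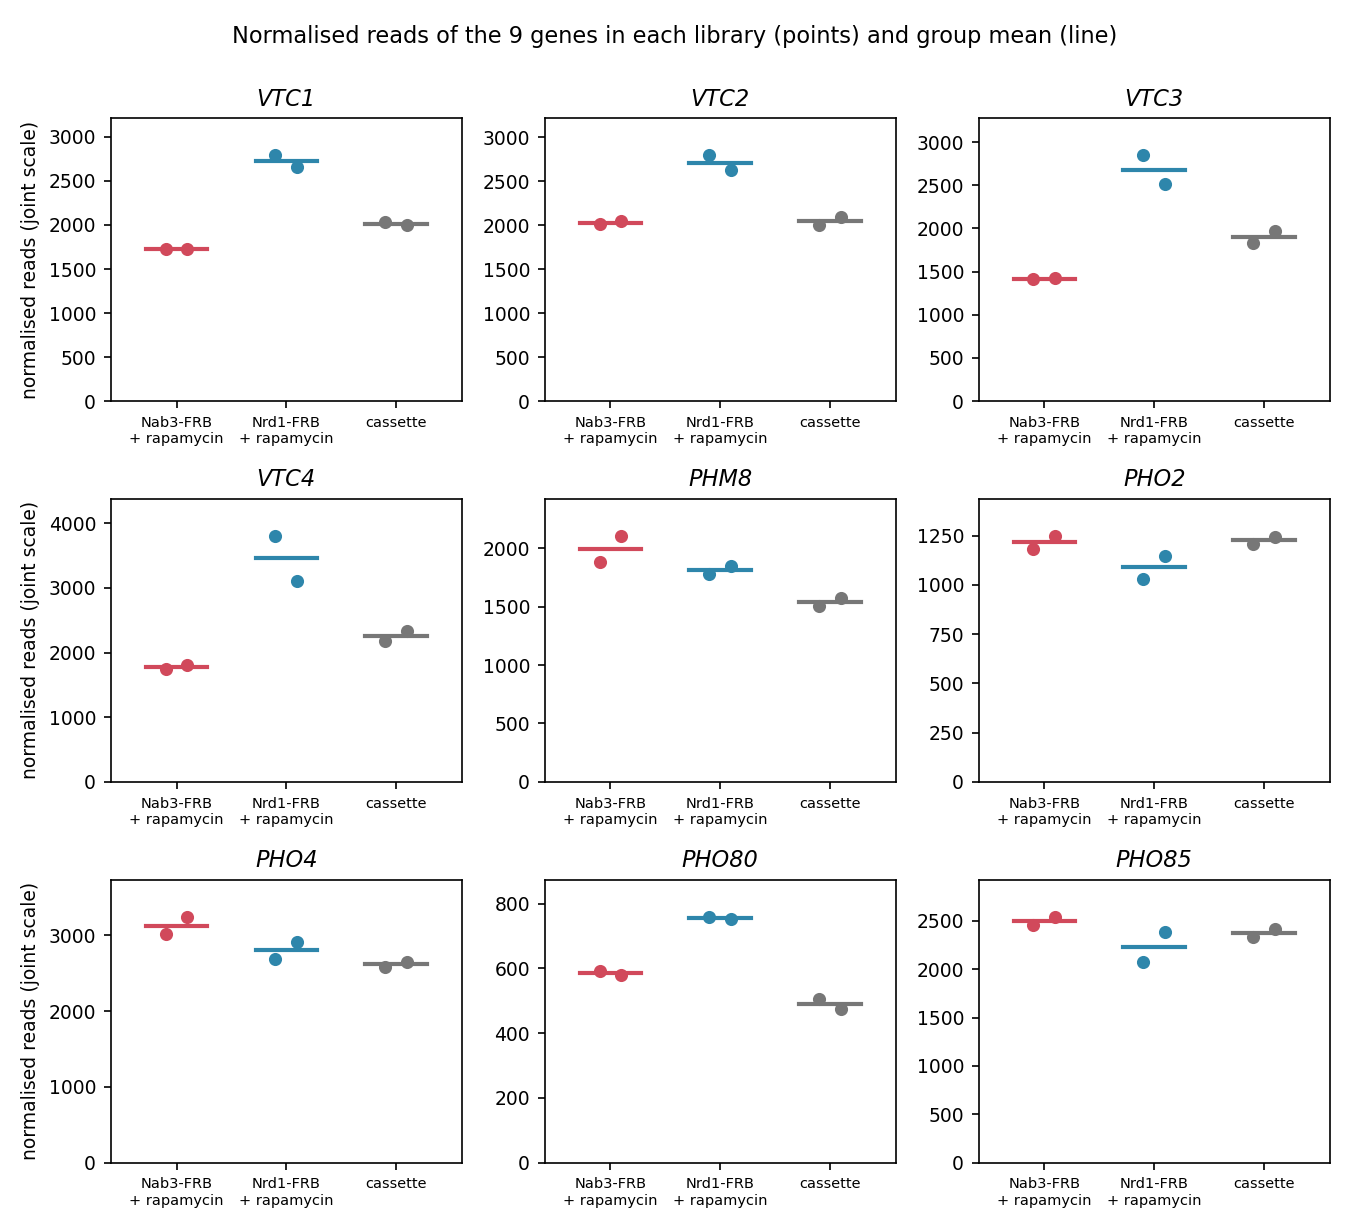
Normalised reads of the 9 genes in each of the 6 libraries; points are single libraries on the joint scale, grouped as Nab3 depletion, Nrd1 depletion and cassette, and bars mark the group means. For VTC1, VTC3 and VTC4 the Nrd1 depletion libraries lie above the cassette libraries and the Nab3 depletion libraries below them.

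VTC4, the polymerase subunit (YJL012C, chromosome X, 411234 to 413399, minus strand, R64), had 1752 and 1812 normalised reads in the Nab3 depletion libraries, 3803 and 3104 in the Nrd1 depletion libraries, and 2175 and 2336 in the cassette libraries. The 3 groups did not overlap, and the Nrd1 depletion libraries differed most from each other. The group means were 1782 ± 42.4 after Nab3 depletion, 3453 ± 494 after Nrd1 depletion and 2255 ± 113 in the cassette. VTC4 was 0.791 times the cassette level after Nab3 depletion (-0.34 ± 0.06, adjusted p = 0.000291) and 1.52 times the cassette level after Nrd1 depletion (0.61 ± 0.10, adjusted p = 0.00459). The direct difference between Nab3 and Nrd1 depletion was -0.95 ± 0.09 (adjusted p = 0.000377). A separate row, YJL012C-A, which the annotation lists as a synonym of VTC4, had 25.3 and 59.7 normalised reads after Nab3 depletion, 132 and 71.7 after Nrd1 depletion and 43.3 and 56.5 in the cassette, and was not called in any comparison.

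VTC3 (YPL019C, chromosome XVI, 514511 to 517018, minus strand), a subunit with an SPX domain, had 1413 and 1420.2 normalised reads after Nab3 depletion, 2849.7 and 2510.2 after Nrd1 depletion, and 1831 and 1969 in the cassette libraries. Here too the groups did not overlap, with the cassette in the middle. Means were 1417 ± 5.16 after Nab3 depletion, 2680.0 ± 240.1 after Nrd1 depletion and 1900.0 ± 97.0 in the cassette. VTC3 fell to 0.746 times the cassette level after Nab3 depletion (-0.42 ± 0.06, adjusted p = 5.14e-05) and rose to 1.41 times that level after Nrd1 depletion (0.49 ± 0.08, adjusted p = 0.00407). Nab3 minus Nrd1 depletion gave -0.92 ± 0.07 (adjusted p = 0.000157).

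VTC1, the small membrane subunit (YER072W, chromosome V, 302806 to 303195, plus strand), had 1731 and 1725 normalised reads after Nab3 depletion, 2794 and 2663 after Nrd1 depletion, and 2034 and 1997 in the cassette libraries. Libraries of a group lay close together and the groups did not overlap. The means were 1728 ± 4.62 after Nab3 depletion, 2729 ± 92.9 after Nrd1 depletion and 2015 ± 26.2 in the cassette. VTC1 stood at 0.858 times the cassette level after Nab3 depletion (-0.22 ± 0.05, adjusted p = 0.00465) and at 1.35 times that level after Nrd1 depletion (0.44 ± 0.06, adjusted p = 0.00214). The fall after Nab3 depletion missed the threshold without cassette library 1, at -0.21 (adjusted p = 0.0708). Nab3 minus Nrd1 depletion was -0.66 ± 0.06 (adjusted p = 0.000196).

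VTC2 (YFL004W, chromosome VI, 131810 to 134296, plus strand), the alternative to VTC3 in the complex, had 2014 and 2049 normalised reads after Nab3 depletion, 2800.0 and 2626 after Nrd1 depletion, and 2005 and 2098 in the cassette libraries. The Nab3 depletion values lay between those of the cassette, and both Nrd1 depletion values lay above all others. The means were 2032 ± 24.2 after Nab3 depletion, 2713 ± 123 after Nrd1 depletion and 2052 ± 66.3 in the cassette. After Nab3 depletion the log2 difference was -0.01 ± 0.05, with a 95% interval of -0.13 to 0.10 and an adjusted p of 0.864. After Nrd1 depletion VTC2 rose to 1.32 times the cassette level (0.40 ± 0.06, adjusted p = 0.0037), a call that missed the threshold without cassette library 1, at 0.37 (adjusted p = 0.0563). The direct difference was -0.42 ± 0.06 (adjusted p = 0.00264). Whether VTC2 and VTC3 responded differently to Nab3 depletion was not tested; their 95% intervals, -0.13 to 0.10 for VTC2 and -0.55 to -0.30 for VTC3, did not overlap.

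PHM8 (YER037W, chromosome V, 225889 to 226854, plus strand), which encodes a phosphatase of lysophosphatidic acid and nucleotides induced when phosphate is low, had 1879 and 2105 normalised reads after Nab3 depletion, 1776 and 1850.5 after Nrd1 depletion, and 1505 and 1574 in the cassette libraries. All 4 depletion libraries lay above both cassette libraries, and the Nab3 depletion values lay above the Nrd1 depletion values. The means were 1992 ± 159.6 after Nab3 depletion, 1813 ± 52.9 after Nrd1 depletion and 1539.7 ± 49.0 in the cassette. PHM8 rose to 1.29 times the cassette level after Nab3 depletion (0.37 ± 0.06, adjusted p = 0.000353), while VTC1, VTC3 and VTC4 were lower there. After Nrd1 depletion it stood at 1.18 times the cassette level (0.24 ± 0.06, adjusted p = 0.023). That call missed the threshold with cassette library 1 left out (0.20, adjusted p = 0.237) or cassette library 2 left out (0.27, adjusted p = 0.121), without the trend in eBayes (adjusted p = 0.0676) and with DESeq2 (adjusted p = 0.0649). Nab3 minus Nrd1 depletion was 0.13 ± 0.07, with a 95% interval of -0.02 to 0.29 (adjusted p = 0.2).

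PHO4, the transcription factor gene (YFR034C, chromosome VI, 225020 to 225958, minus strand), had 3011 and 3246 normalised reads after Nab3 depletion, 2692 and 2911 after Nrd1 depletion, and 2579 and 2653 in the cassette libraries. The groups did not overlap, with Nab3 depletion highest. The means were 3129 ± 166 after Nab3 depletion, 2802 ± 155 after Nrd1 depletion and 2616 ± 52.0 in the cassette. PHO4 rose to 1.20 times the cassette level after Nab3 depletion (0.26 ± 0.06, adjusted p = 0.00193). After Nrd1 depletion the difference was 0.10 ± 0.06 (adjusted p = 0.254), with a 95% interval of -0.05 to 0.24, and it passed the threshold without Nrd1 library 1, at 0.15 (adjusted p = 0.0262). The difference between depletions was 0.16 (95% interval 0.01 to 0.31, adjusted p = 0.109), and it passed without Nrd1 library 2 (adjusted p = 0.0241). PHO2, the homeodomain partner of Pho4 (YDL106C, chromosome IV, 270222 to 271901, minus strand), had 1182 and 1248 normalised reads after Nab3 depletion, 1032 and 1144 after Nrd1 depletion, and 1206 and 1243 in the cassette libraries. Both Nrd1 depletion values lay below all 4 others. PHO2 averaged 1215 ± 47.1 after Nab3 depletion, 1088 ± 79.6 after Nrd1 depletion and 1225 ± 26.4 in the cassette, and was not called: -0.01 ± 0.06 after Nab3 depletion (adjusted p = 0.901) and -0.17 ± 0.07 after Nrd1 depletion (adjusted p = 0.113). Without Nrd1 library 2 it passed after Nrd1 depletion, at -0.25 (adjusted p = 0.00171). The difference between depletions was 0.16 ± 0.07 (adjusted p = 0.149), and it passed without the same library (adjusted p = 0.0309).

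PHO80, the cyclin gene (YOL001W, chromosome XV, 325249 to 326130, plus strand), had 591 and 581 normalised reads after Nab3 depletion, 759.9 and 754 after Nrd1 depletion, and 506 and 474 in the cassette libraries. The groups did not overlap, and the cassette was lowest. The means were 586 ± 7.04 after Nab3 depletion, 757 ± 4.19 after Nrd1 depletion and 490.1 ± 22.2 in the cassette. PHO80 rose to 1.54 times the cassette level after Nrd1 depletion (0.63 ± 0.09, adjusted p = 0.00262) and to 1.20 times that level after Nab3 depletion (0.26 ± 0.08, adjusted p = 0.0229). The Nab3 call missed the threshold with cassette library 1 left out (0.30, adjusted p = 0.0606), with cassette library 2 left out (0.21, adjusted p = 0.205) and with DESeq2 (adjusted p = 0.105). The direct difference, Nab3 minus Nrd1 depletion, was -0.37 ± 0.08 (adjusted p = 0.0147), and it missed the threshold without Nab3 library 2 (adjusted p = 0.0705) or 3 (adjusted p = 0.0906). PHO85, the kinase gene (YPL031C, chromosome XVI, 492018 to 493037, minus strand), whose reading frame is split by 1 intron, had 2454 and 2543 normalised reads after Nab3 depletion, 2078 and 2380.1 after Nrd1 depletion, and 2328 and 2415 in the cassette libraries. The Nrd1 depletion values overlapped those of the cassette, and both Nab3 depletion values lay above all 4 others. PHO85 averaged 2498 ± 63.4 after Nab3 depletion, 2229 ± 214 after Nrd1 depletion and 2372 ± 61.0 in the cassette, with differences from the cassette of 0.08 ± 0.05 after Nab3 depletion (adjusted p = 0.285) and -0.09 ± 0.08 after Nrd1 depletion (adjusted p = 0.372). Without Nrd1 library 2 it passed after Nrd1 depletion, at -0.19 (adjusted p = 0.00462). Nab3 minus Nrd1 depletion was 0.17 ± 0.07 (adjusted p = 0.127), and it passed without that library (adjusted p = 0.00664).

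**Figure D2:**
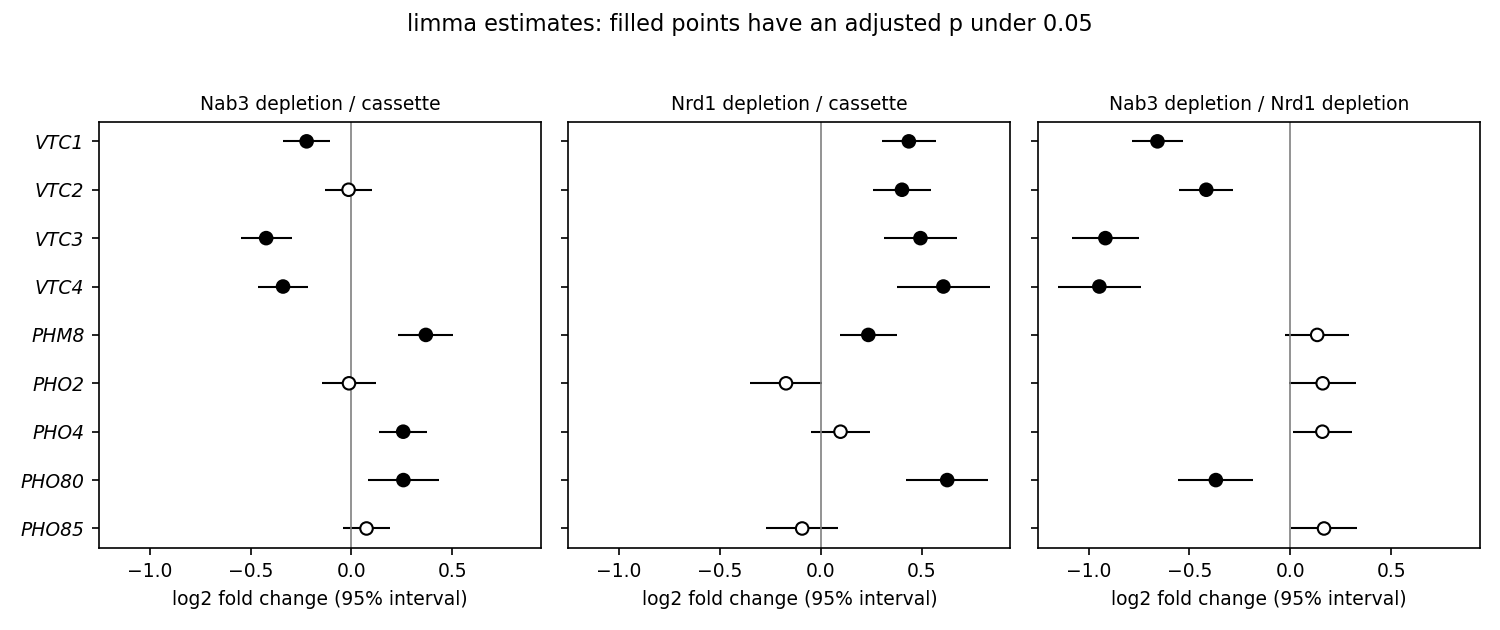
Log2 fold changes of the 9 genes with 95% intervals in the 3 comparisons, from limma; filled points passed an adjusted p of 0.05. VTC1, VTC3 and VTC4 lie below 0 after Nab3 depletion and above 0 after Nrd1 depletion, and the direct differences of VTC1 to VTC4 run from -0.95 to -0.42.

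VTC1 to VTC4 had a median log2 difference from the cassette of -0.28 after Nab3 depletion and 0.47 after Nrd1 depletion, and the median direct difference was -0.79. VTC5, a further subunit gene counted below among the partners of the complex, is not in these medians and was higher after Nab3 depletion (0.43). The 4 regulators had medians of 0.17 after Nab3 depletion and 0.003 after Nrd1 depletion. Over all features tested the medians were -0.005 for Nab3 depletion, -0.004 for Nrd1 depletion and 0.003 for the direct difference. The direct comparison called 772 features higher and 569 lower; with libraries scaled to their totals 626 of 1348 calls were higher, and with upper-quartile scaling 633 of 1444, so the split of all calls turned with scaling while the 5 members stayed lower. The authors' deposited table gave adjusted p-values under 0.05 to 5 members after Nab3 depletion, VTC1, VTC3, VTC4, PHM8 and PHO4, and to 5 after Nrd1 depletion, VTC1 to VTC4 and PHO80. Over all features with an adjusted p in the authors' deposited table, 27.3% of 6560 were under 0.05 after Nab3 depletion and 23.6% of 6558 after Nrd1 depletion. In the authors' deposited table PHO80 after Nab3 depletion (adjusted p = 0.081) and PHM8 after Nrd1 depletion (adjusted p = 0.084) were not under it.

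The libraries of the Nrd1 depletion group differed from each other in opposite directions within the gene set. Library 1 was at 1.23 times library 2 for VTC4, 1.14 for VTC3, 1.07 for VTC2, 1.05 for VTC1 and 1.01 for PHO80. For PHM8 the ratio was 0.960, for PHO4 0.925, for PHO2 0.902 and for PHO85 0.873. The genes that were higher after Nrd1 depletion, except PHM8, were the ones with more signal in library 1, by little for VTC1 and PHO80. Library 1 is part of the group mean behind those calls, and the same ratio over all features was not examined, so no conclusion is drawn.

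Per kilobase of gene length, the scale on which levels of different genes can be set side by side, VTC1 was highest, with 4442 normalised reads per kilobase after Nab3 depletion, 7014 after Nrd1 depletion and 5181 in the cassette. These levels lay at percentile 93.6, 96.9 and 94.6 of all features tested in those groups. In the cassette the order then ran through PHO4 at 2789, PHO85 at 2327, PHM8 at 1596, VTC4 at 1042, VTC2 at 825, VTC3 at 758, PHO2 at 729.5 and PHO80 at 556, against a median over features of 955. VTC3 and PHO2 were the neighbours in this order that differed by less than the spread of their libraries. VTC3 was lowest of the 9 after Nab3 depletion, at 565 per kilobase, and VTC4 reached 1595 after Nrd1 depletion. The median over features was 953 after Nab3 depletion and 940.6 after Nrd1 depletion.

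The list of 12 other genes known as targets of Pho4 was chosen with earlier results of these data known. Of these 12, 2 rose and 7 fell after Nab3 depletion, with a median of -0.30. Among the 7, PHO86 missed the threshold in limma without the trend in eBayes (-0.23, adjusted p = 0.0606). Its fall also missed the threshold without cassette library 1, where it stood at -0.19. After Nrd1 depletion 10 rose and 0 fell, with a median of 0.59. Over all features tested, 21.1% rose and 18.7% fell after Nab3 depletion, and 17.5% rose and 17.8% fell after Nrd1 depletion. In the direct comparison 10 of the 12 were lower and 0 higher (median -0.75), where 8.91% of all features were lower and 12.1% higher. PHO84, the high-affinity phosphate transporter gene, averaged 493 ± 4.69 normalised reads after Nab3 depletion, 11402 ± 1477 after Nrd1 depletion and 3221 ± 415 in the cassette, a wider span than VTC1 to VTC4. PHO81, the inhibitor of the Pho80-Pho85 kinase, averaged 1725 ± 44.9 after Nab3 depletion, 3034 ± 191 after Nrd1 depletion and 2234 ± 99.1 in the cassette, with log2 differences of -0.37 after Nab3 depletion and 0.44 after Nrd1 depletion, beside -0.42 and 0.49 for VTC3. SPL2 (-2.03) and PHM6 (-1.26) followed PHO84 (-2.70) among the falls after Nab3 depletion, and PHO84 (1.82), SPL2 (1.14) and PHM6 (0.97) were among the rises after Nrd1 depletion. The sodium-phosphate cotransporter gene PHO89 fell after Nab3 depletion (-1.23), and GIT1, a glycerophosphoinositol transporter gene, rose after both (0.69 after Nab3 and 0.90 after Nrd1 depletion). The Nrd1 value of GIT1 was 0.57 without Nrd1 library 1 and 1.24 without Nrd1 library 2. CTF19, the other gene that rose after Nab3 depletion (0.24), missed the threshold there without cassette library 1 (adjusted p = 0.0511). The count of rises after Nrd1 depletion was 5 without cassette library 1 and 6 without cassette library 2. PHO81 (0.40, adjusted p = 0.052), PHO5, PHO8, PHO11 and GIT1 missed the threshold without library 1, and PHM6 (0.89, adjusted p = 0.0531), PHO8, PHO11 and GIT1 without library 2. A noncoding RNA is annotated across PHO84 and whether reads were counted by strand is not known, and PHO11 and PHO12 are near-identical copies whose reads may be shared, so their values are uncertain.

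**Figure D3:**
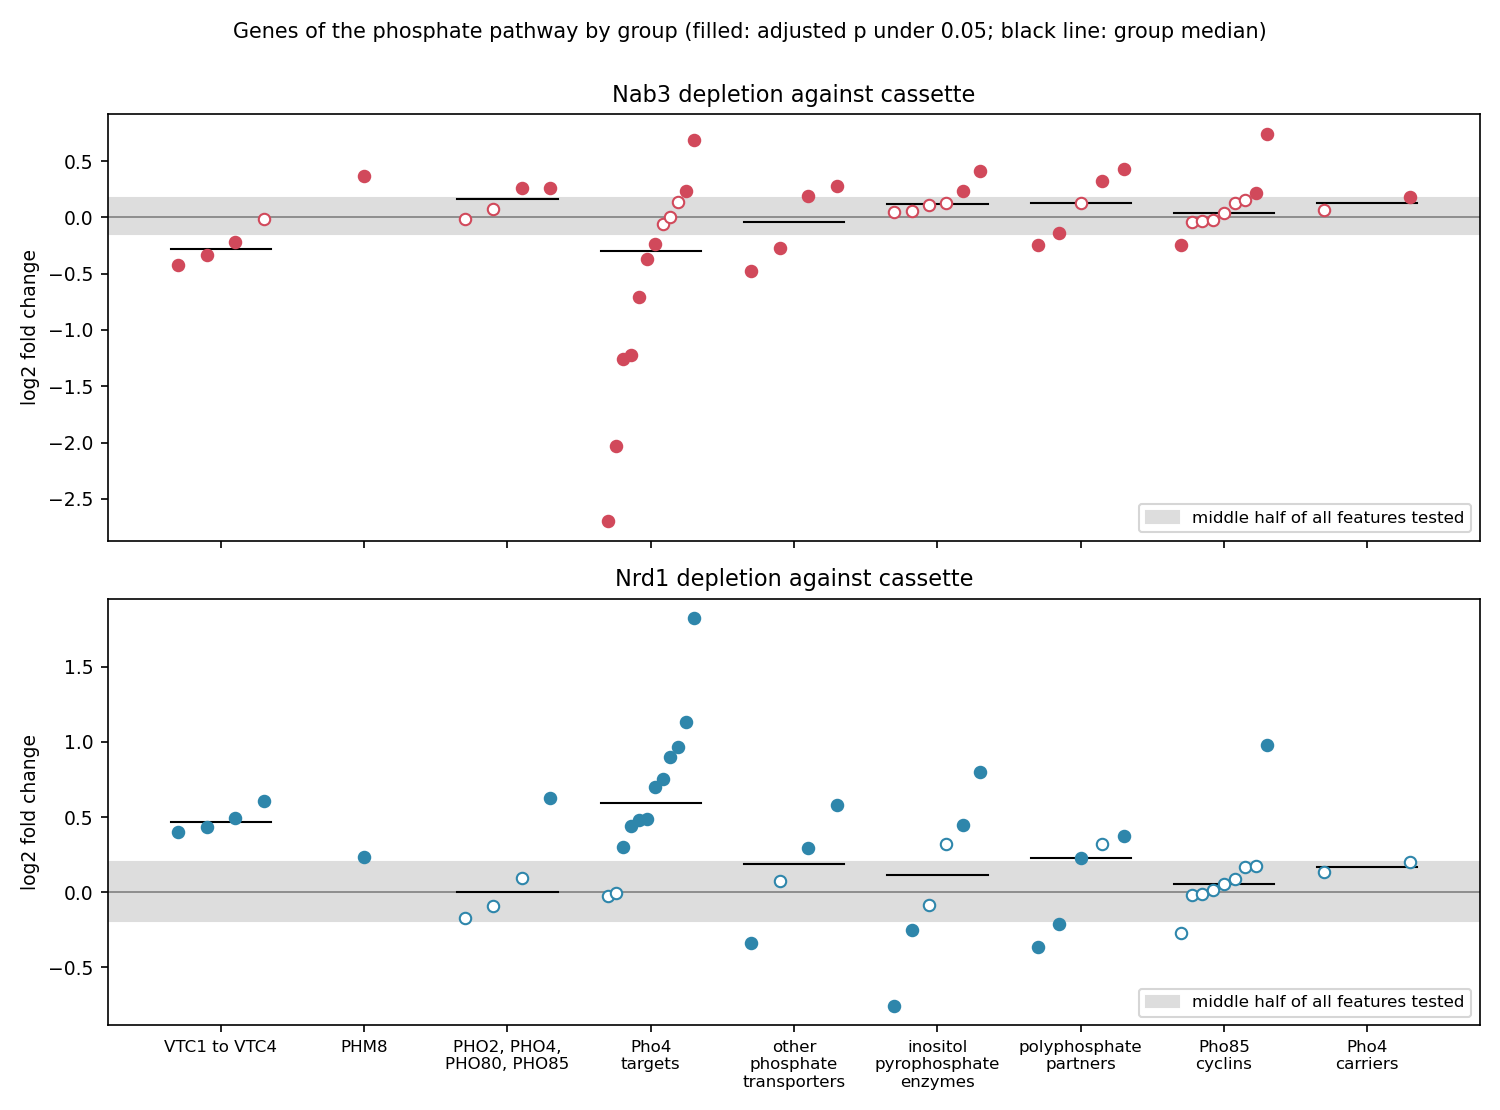
Log2 fold changes of the 9 genes and of the other phosphate pathway genes by list, after Nab3 depletion (upper panel) and Nrd1 depletion (lower panel), each against the cassette; filled points passed an adjusted p of 0.05, black lines are list medians, and the grey band spans the quartiles of all features tested. VTC1 to VTC4 and the Pho4 targets have medians of -0.28 and -0.30 in the upper panel and 0.47 and 0.59 in the lower.

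In the other lists of the pathway, calls went in both directions, in a single direction or were absent, depending on the list and the depletion. Of 5 genes that work with or against the VTC complex, 2 rose and 2 fell after each depletion. Over all features tested, 21.1% rose and 18.7% fell after Nab3 depletion, and 17.5% rose and 17.8% fell after Nrd1 depletion. VTC5 averaged 2427 ± 13.2 after Nab3 depletion, 2114 ± 53.1 after Nrd1 depletion and 1808 ± 27.8 in the cassette, and rose after Nab3 depletion (0.43, adjusted p = 1.88e-05), where VTC1, VTC3 and VTC4 were lower. Its rise after Nrd1 depletion (0.23, adjusted p = 0.021) missed the threshold with cassette library 1 (adjusted p = 0.211) or 2 (adjusted p = 0.144) left out. PPN2, a vacuolar polyphosphatase gene, rose after both depletions (0.32 and 0.37), and the exopolyphosphatase gene PPX1 was lower after both (-0.25 and -0.21), as was PPN1, another polyphosphatase gene (-0.14 and -0.36). Without cassette library 1 the Nrd1 calls of PPN2 (adjusted p = 0.1), PPX1 and PPN1 were lost, and without cassette library 2 those of PPX1 and PPN1. The Nab3 call of PPN1 was lost without either cassette library or without Nab3 library 3 (adjusted p = 0.0755). The Nrd1 count for this list was 0 higher and 0 lower without library 1 and 1 higher and 0 lower without library 2.

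Inositol pyrophosphates bind SPX domains. Of 6 genes of inositol pyrophosphate metabolism, 2 rose after Nab3 depletion, and 2 rose and 2 fell after Nrd1 depletion. Beside the counts in this paragraph, 39.7% of all features tested were called after Nab3 depletion and 35.3% after Nrd1 depletion. VIP1, an inositol pyrophosphate synthase gene, averaged 4401 ± 569 after Nab3 depletion, 5765 ± 749.6 after Nrd1 depletion and 3293 ± 193 in the cassette (0.41 and 0.80). IPK1 makes the inositol hexakisphosphate that the synthases use. It averaged 952 ± 14.1 after Nab3 depletion, 546 ± 55.4 after Nrd1 depletion and 922 ± 46.4 in the cassette. The log2 difference of IPK1 after Nrd1 depletion was -0.76 (adjusted p = 0.0022). KCS1, the other synthase gene, rose after both depletions (0.24 and 0.45), but not without cassette library 1, where the adjusted p was 0.059 after Nab3 and 0.0557 after Nrd1 depletion; ARG82 fell after Nrd1 depletion (-0.25), a call lost without either cassette library. The 4 other phosphate transporters gave 2 rises and 2 falls after Nab3 depletion, PHO90 (0.28) and PHO91 (0.19) against PHO87 (-0.48) and PHO88 (-0.28), and 2 rises and 1 fall after Nrd1 depletion, PHO90 (0.58) and PHO91 (0.30) against PHO88 (-0.34). The PHO91 call after Nab3 depletion was lost without cassette library 1 (adjusted p = 0.183), and the PHO91 and PHO88 calls after Nrd1 depletion were lost without either cassette library, which left 1 rise. Of 9 other cyclins of Pho85, 2 rose and 1 fell after Nab3 depletion and 1 rose after Nrd1 depletion; PCL9 was the one that rose after both (0.74 and 0.98). PCL10 (0.22) rose and CLG1 (-0.25) fell after Nab3 depletion, and PCL10 missed the threshold without cassette library 2 (adjusted p = 0.102). Of the Pho4 carriers PSE1 and MSN5, MSN5, its exporter, rose after Nab3 depletion (0.18, adjusted p = 0.0169), but not with cassette library 1 (adjusted p = 0.0558) or 2 (adjusted p = 0.156) left out, and neither was called after Nrd1 depletion.

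No gene of the R64 annotation overlaps the reading frame of any of the 9 genes, and each stretch of 30 bases in their frames occurs once in the R64 genome. The 765 deposited features not matched to that annotation were not placed, so overlap with them was not checked. YJL012C-A, the row listed as a synonym of VTC4, was not placed either. Of the 18 protein-coding neighbours, 4 rose and 1 fell after Nab3 depletion, and 4 rose and 2 fell after Nrd1 depletion. Over all features tested, 39.7% were called after Nab3 depletion and 35.3% after Nrd1 depletion, so neighbours were not called more often than other features. The neighbours of VTC4, RPC17 and MAD3, and those of PHO2, MSS2 and NSE4, were not called in any comparison. CTF19, a kinetochore gene that starts 632 bases from VTC3 on the other strand and is counted among the Pho4 targets, rose after both depletions (0.24 and 0.75), although VTC3 was lower after Nab3 depletion. ALD5, 834 bases downstream of VTC1 and the gene of a mitochondrial aldehyde dehydrogenase, rose after Nab3 depletion (0.32). Beside VTC2, the Rab GTPase gene SEC4 upstream was lower (-0.46) and the meiotic gene MSH4 downstream was higher (0.64) after Nrd1 depletion, and both calls were lost without cassette library 1 (adjusted p = 0.0666 for SEC4 and 0.0639 for MSH4), as was that of MSH4 without cassette library 2 (adjusted p = 0.123). The noncoding RNA gene RUF20 lies on the other strand 306 bases upstream of VTC2.

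KRE29 converges on PHM8 with a gap of 3 bases, and whether reads were counted by strand is not known. After Nab3 depletion KRE29 was lower (-0.21, adjusted p = 0.0349) while PHM8 was higher, and that fall missed the threshold with cassette library 1 (adjusted p = 0.242), cassette library 2 (adjusted p = 0.103) or Nab3 library 2 (adjusted p = 0.123) left out. IZH2, a membrane protein gene that starts 884 bases from PHO80 on the other strand, rose after Nab3 depletion (0.79) and after Nrd1 depletion (0.31), where the Nrd1 value missed the threshold with cassette library 1 (adjusted p = 0.109) or 2 (adjusted p = 0.201) left out. SVL3, 653 bases downstream of PHO85, rose after both depletions (0.83 and 1.00), where PHO85 was not called. QCR6, a gene of respiratory complex III downstream of PHO4, fell after Nrd1 depletion (-0.46), and PHO4 was not called there.

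**Figure D4:**
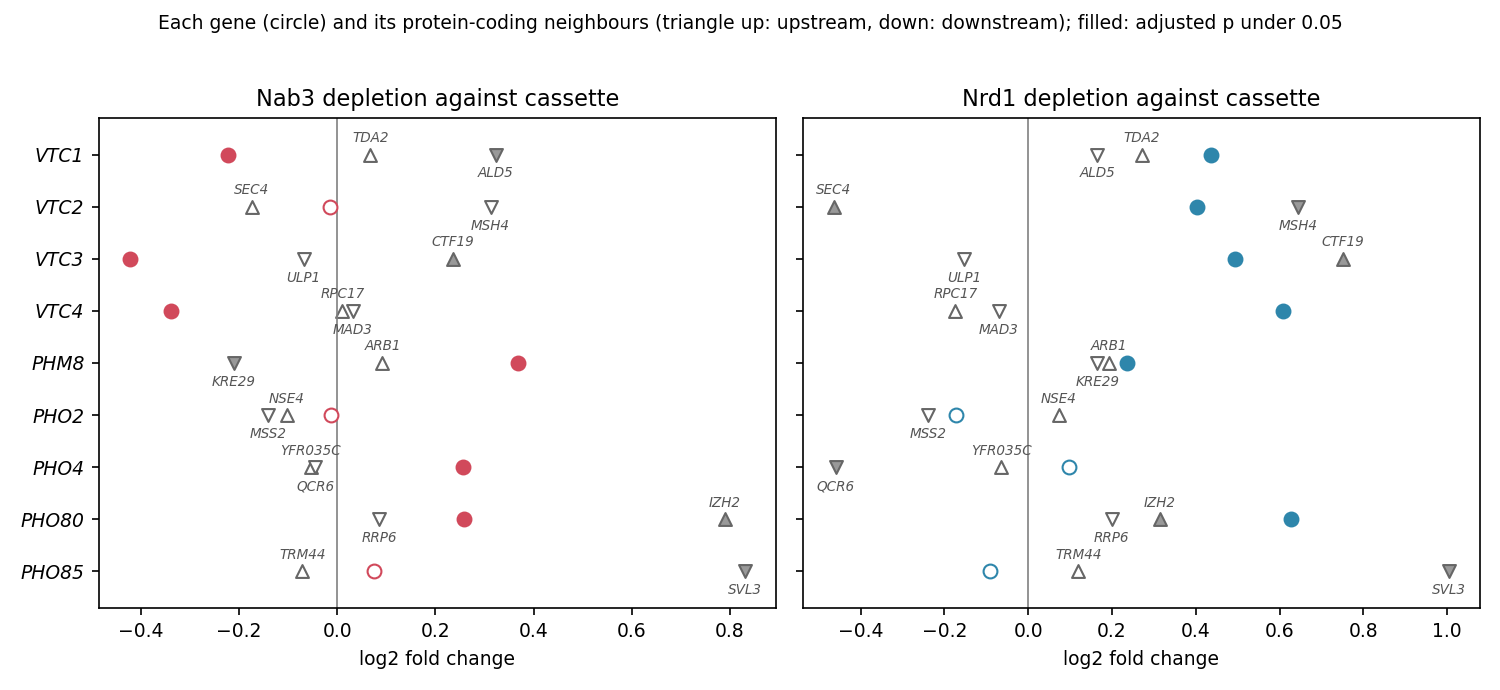
Log2 fold changes of each of the 9 genes and of its protein-coding neighbours on both sides, after Nab3 depletion and after Nrd1 depletion, each against the cassette; filled points passed an adjusted p of 0.05. RPC17 and MAD3, beside VTC4, did not pass in either comparison, while CTF19, beside VTC3, lies above 0 in both.

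Likeness of profiles was measured as the root-mean-square difference of log2 values over the 6 libraries, each gene centred on its own mean, among 5731 features with a mean of at least 100. The 5 features outside the set nearest to the mean profile of VTC1 to VTC4 were FYV1 at 0.052, PHO81 at 0.056, YJR023C at 0.058, YLR101C at 0.071 and YLR317W at 0.075. VTC1 itself lay at 0.049, VTC3 at 0.085, VTC4 at 0.096 and VTC2 at 0.136, so these 5 lay nearer to the mean than 3 of the genes that made it. PHO80 lay at 0.223, and PHM8, PHO4, PHO85 and PHO2 lay between 0.373 and 0.389. Among pairs of members, PHO2 and PHO85 (0.043), VTC3 and VTC4 (0.059) and PHM8 and PHO4 (0.064) were close, and PHO2 and VTC4 were farthest apart (0.482). The features nearest to PHM8 were DPH5 at 0.019, MSK1 at 0.030 and CBK1 at 0.031. These distances are descriptions over 6 libraries of 3 groups and carry no test.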

How the data were processed

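PAR-CLIP libraries of 3 groups of 2 were used. The signal the authors deposited is the reads of each gene divided by a size factor of its library; within 0.01 reads, 100% of values are whole multiples of 1 read. Per the submitters' processing notes, Bowtie 1.1.1, DESeq, R64 and sacCer3 were used; read counter and strand setting: not given in the sources used here. Log2 fold changes and adjusted p-values stand in the authors' deposited comparisons, and their gene lengths, deposited by the authors, gave values per kilobase.

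The 9 members and all pathway lists were chosen with earlier results of these data known. Tests used limma 3.58.1 in R 4.3.3 on log2(value + 1), keeping features that averaged at least 10, with a mean-variance trend, Benjamini-Hochberg adjustment over all features and a threshold of 0.05, within each table; the direct comparison used all 6 libraries on a joint scale, a factor of 1.18 taken from the cassette columns, whose recovered reads are identical in both tables. Alternatives were edgeR 4.0.16 and DESeq2 1.42.0 on recovered reads, other filters, pseudocounts and scalings, and each library left out. Scripts were tested on simulated data. Named genes are the members, called genes of the lists, the neighbours, and the features of nearest profile.

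Of 6677 features, 5912 matched the R64 annotation, with 9 of 9 members matching in symbol and length. Columns of the Nab3-FRB libraries carry the numbers 2 and 3, against 1 and 2 in the titles, so they were assigned to the group only. Windows before start codons were read from the R64 genome.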

Additional observations from a re-analysis of the deposited data

Results flagged for a closer look

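In the direct comparison in limma, 5 of the 9 genes and 18 of 37 other phosphate pathway genes differed between the depletion groups. The threshold was an adjusted p of 0.05, which 21.0% of all 6385 features passed. Strain and depleted protein changed together there, and the time in rapamycin may have differed, so their parts cannot be told apart. The log2 differences, Nab3 minus Nrd1 depletion, were -0.66 for VTC1, -0.42 for VTC2, -0.92 for VTC3, -0.95 for VTC4 and -0.37 for PHO80. Among Pho4 targets the values were -4.52 for PHO84, -3.17 for SPL2, -2.23 for PHM6, -1.20 for PHO5, -1.20 for PHO89, -0.81 for PHO81, -0.70 for PHO12, -0.54 for PHO11, -0.52 for CTF19 and -0.23 for PHO86. Of the other transporters, PHO87 gave -0.55 and PHO90 -0.30. IPK1 (0.80), ARG82 (0.31), PPN1 (0.22) and VTC5 (0.20) were higher after Nab3 than after Nrd1 depletion, while VIP1 (-0.39) and the Pho85 cyclin gene CLG1 (-0.34) were lower. With 1 library left out, the threshold was missed by PHO80 and PHO90 (each without Nab3 library 2 or 3), by PHO11 (without Nab3 library 3), by VIP1 (without Nab3 library 2 or either cassette library), and by VTC5, PPN1 and PHO86 (without any 1 of the Nab3 or cassette libraries, or without Nrd1 library 2 for VTC5 and PHO86 and Nrd1 library 1 for PPN1). VIP1 was at -0.26 without Nab3 library 2 and without Nrd1 library 2. In limma, VTC5 also missed the threshold with upper-quartile scaling (adjusted p = 0.0629), scaling to the totals (0.0539) and no trend (0.0749). With DESeq2 the adjusted p of VTC5 was 0.0912. Of 15 alternatives, VTC5 and PPN1 each lost the call in 10. PHO86, PHO90 and VIP1 also missed the threshold without the trend, and PHO86 with DESeq2. No group had the 4 libraries needed to look for a library far from the rest.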

How the results depend on the processing

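Of 17 called differences of the 9 genes, 12 kept their direction and their side of the threshold under the alternatives run, and 5 lost the call under at least 1, each named above with its value. Of those not called, 6 passed under at least 1, all with 1 Nrd1 library left out. The differences whose sign changed were not called: with 1 library left out, VTC2 after Nab3 depletion ran from -0.047 to 0.019 (highest without cassette library 2), PHO2 after Nab3 depletion from -0.051 to 0.028 (above 0 without cassette library 2 or Nab3 library 2), and PHO85 after Nrd1 depletion from -0.19 to 0.0055 (above 0 without Nrd1 library 1). The cause was not tested.

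Counts over all features depended more on single libraries. Nab3 depletion called 2528 features, 1672 to 2803 with 1 library left out and 1679 with all 6 libraries fitted together; DESeq2 called 1781. Nrd1 depletion called 2238, and 640.0 to 3617 with 1 library left out, the lowest without cassette library 1 and the highest without Nrd1 library 2. The direct comparison called 1341, against 775 without the trend, 800.0 with the depletion libraries alone and 411 to 2079 with 1 library left out; its members called were 5, and 4 to 8 with 1 library left out. With 2 libraries a group, small differences are poorly bounded.

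The replicate block was fitted for Nrd1 depletion and called 2243 features, with no change of a member's call. Deviations of same-numbered libraries had r = 0.0133 across 6347 features. With 2 libraries a group this cannot tell whether the numbers mark paired samples, and the labels do not say. No paired analysis was possible because the Nab3-FRB columns share fewer than 2 numbers with the other groups, for Nab3 depletion and the direct comparison.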
